A study of Mus musculus with 6 samples.

Results

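Autophagy encloses parts of a cell's own cytoplasm in a double membrane, the autophagosome, and hands them to the lysosome for digestion. A kinase complex built on ULK1 starts the process, a lipid kinase built on VPS34 and Beclin 1 marks the site, and a pair of ubiquitin-like conjugation systems attaches LC3 and GABARAP proteins to the growing membrane. Cargo receptors such as p62 (Sqstm1) and optineurin tie ubiquitinated proteins or damaged mitochondria to LC3, and the transcription factors TFEB and TFE3 switch on lysosomal and autophagy genes. In the heart the pathway is known for clearing damaged mitochondria. The genes described here are 39 named members of this machinery, picked by gene symbol from the 23284 genes listed per library. All 39 were listed and had a mean of at least 1 FPKM, the level above which genes were tested. FPKM is a read count divided by the length of the transcript and by the size of the library.

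The tissue was whole mouse heart at E13.5, in mid-gestation (strain C57BL/6), in pools of 5 hearts per library and 3 libraries per group. In the Tfam KO group (Tfamfl/fl; Nkx2.5IRES-Cre/+) both alleles of Tfam, the gene of mitochondrial transcription factor A, were floxed. In the Control group (Tfamfl/+; Nkx2.5IRES-Cre/+) 1 allele was floxed. Cre recombinase expressed from the Nkx2.5 locus was thus shared by both groups. It is known to act in the cardiac lineage, so that heart cells of other origin keep their Tfam alleles, and controls keep 1 intact allele where Cre acts. The comparison asks how the transcripts of the autophagy pathway differ when the cardiac lineage has no intact Tfam. In bulk tissue, fewer cells of a type and less RNA per cell cannot be told apart.

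Library totals ran from 12544836 to 16709959 reads in Tfam KO and from 12370092 to 18078620 reads in Control. Reads on Rn45s, the ribosomal RNA precursor, took 15% to 31.2% of a Tfam KO library and 27.8% to 32.5% of a control. The FPKM values differed in overall scale, and the median gene was 0.28 log2 units higher in the Tfam KO libraries. After division by size factors (median of ratios, 0.925 to 1.33 for Tfam KO and 0.815 to 1.01 for Control) this shift was 0.0024. Each change is therefore given on both scales, and the words rose and fell are kept for genes past an adjusted p of 0.05 on both. Tfam itself had 3.97, 4.77 and 6.22 FPKM in Tfam KO hearts and 4.64, 5.55 and 6.62 FPKM in controls, with a log2 fold change of -0.15 on the deposited values (SE 0.23, limma adjusted p = 0.651) and -0.43 with size factors (SE 0.15, limma adjusted p = 0.140). A gene-level FPKM does not separate a deleted part from the rest of a transcript, so it is no firm check of the genotype labels. All 8 cardiomyocyte markers were detected, with a summed FPKM of 11491 to 17526 in the Tfam KO libraries and 13837 to 16272 in the controls as deposited, and 9825 to 17636 in the Tfam KO libraries and 14492 to 18776 in the controls with size factors. Their median log2 fold change was 0.04 on the deposited values, with 0 of 8 past the threshold, and -0.30 with size factors. On the latter scale 6 of 8 were negative, beside 5363 of all 10807 genes tested. Ttn was lower there (log2 fold change -0.72, limma adjusted p = 0.0362), beside 2.60% of all genes. Limma-voom placed Ttn and Myh7 lower (log2 fold change -0.72 and -0.63, adjusted p = 0.0120 and 0.0463), beside 4.03%. Their part in the values of the autophagy genes was not tested.

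Of the autophagy machinery a single member, the cargo receptor gene Optn, rose in Tfam KO hearts (on both scales, beside 1.99% of all genes), and 0 fell (0.953%). Optn had about 1.93 times the control level as deposited and 1.56 times with size factors (fold changes of FPKM + 1). As deposited, 4 of 39 members were higher and 0 lower, and over all 10807 genes tested 6.21% were higher and 1.16% lower. The 4 were Optn, Ctsd, Atg3 and Gabarapl1. With size factors 1 member was higher and 0 lower, beside 1.99% higher and 2.60% lower over all genes. Before adjustment, at p under 0.05, 15 members were higher and 0 lower as deposited (background 23.3% and 2.53%), and 5 higher and 1 lower once scaled (background 8.49% and 11.0%). Limma-voom on recovered reads placed 2, Optn and Ctsd, higher (background 2.75%) and 1, Tfeb, lower (background 4.03%). The members' median log2 fold change, on the deposited values, was 0.35, beside 0.28 for all genes, and 0.07 with size factors, beside 0.0024. All 3 Tfam KO libraries lay above all 3 controls in 20 members as deposited (background 25.6%) and in 10 with size factors (background 11.8%). They lay below all controls in 0 members as deposited (background 2.34%) and in 3, Becn1, Nbr1 and Tfeb, with size factors (background 12.2%).

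The number of higher members moved with single libraries, as did the background. As deposited it was 1, 12 and 2 without Tfam KO replicate 1, 2 or 3 (background 2.76%, 20.6% and 3.03%) and 0, 1 and 2 without Control replicate 1, 2 or 3 (background 2.21%, 2.65% and 3.73%). The 12 without Tfam KO replicate 2 were Uvrag, Atg2b, Wipi2, Atg3, Atg4b, Atg5, Gabarapl1, Sqstm1, Optn, Lamp1, Ctsb and Ctsd. With size factors it was 1, 1 and 2 without Tfam KO replicate 1, 2 or 3 (background 1.87%, 1.35% and 1.83%) and 1, 1 and 0 without Control replicate 1, 2 or 3 (background 1.50%, 1.99% and 1.24%). With all 17876 genes above 0 in the test in place of the filtered ones, it was 0 on the deposited values, with Optn at a limma adjusted p of 0.0597 (background 0.811%).

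**Figure D1:**
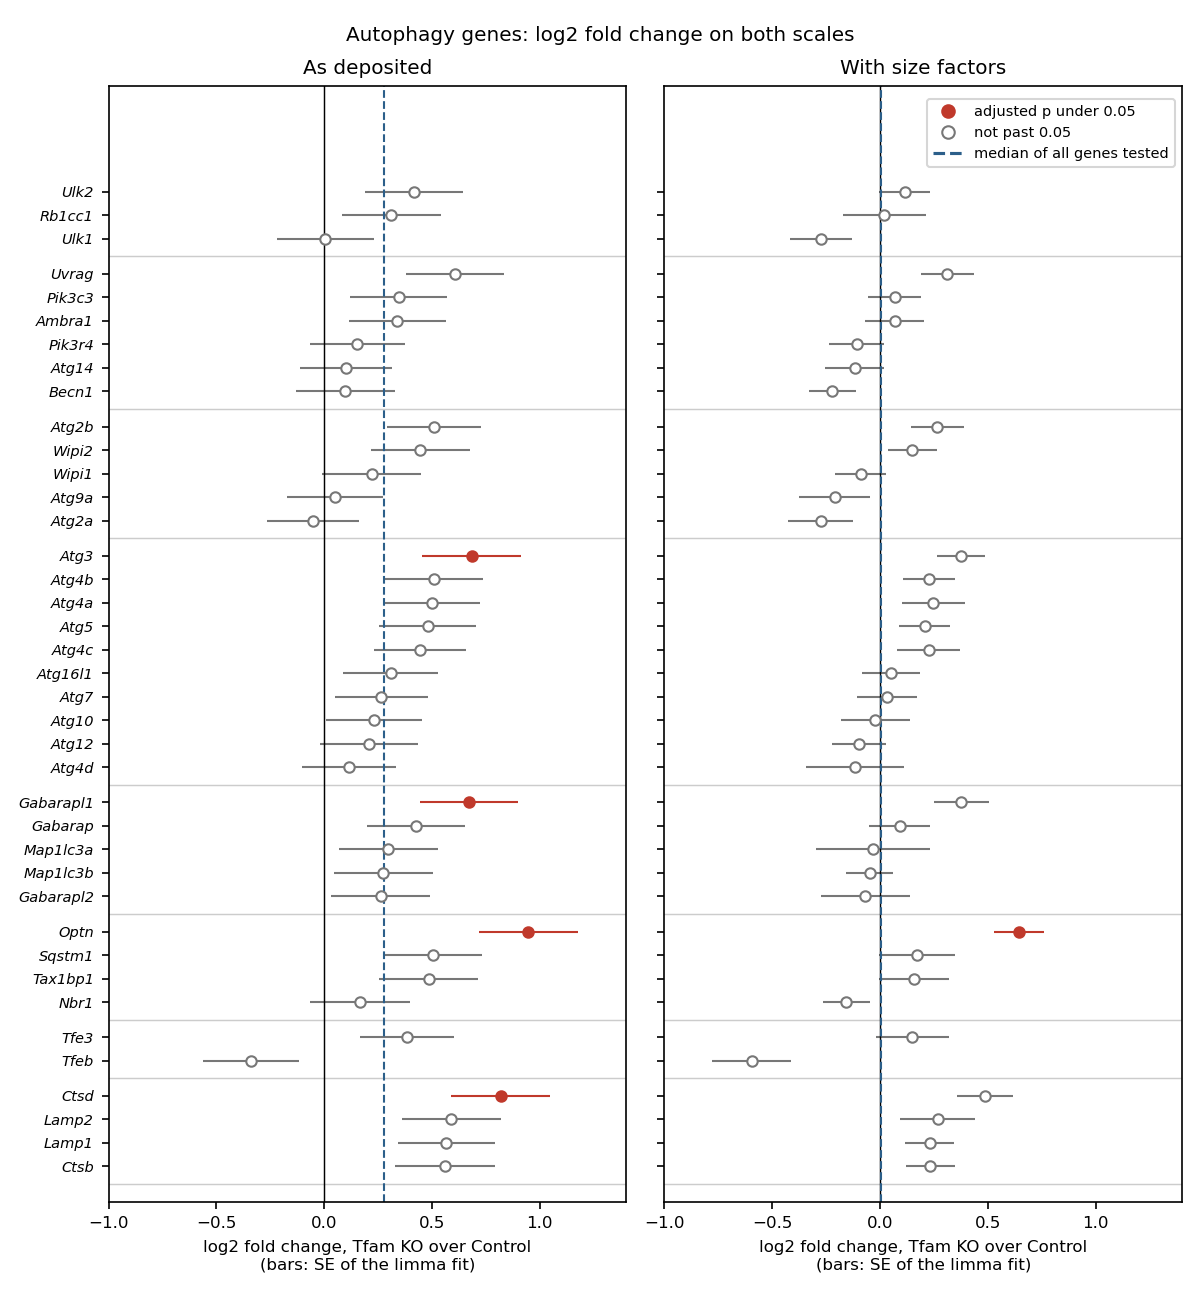
Log2 fold change of Tfam KO over Control for the 39 autophagy genes, grouped by role from the ULK complex at the top to the lysosome at the bottom, as deposited (left) and with size factors (right). Points are limma estimates with SE bars, filled red where the adjusted p is under 0.05, and the dashed line is the median of all genes tested (0.28 and 0.0024). The SE on the left comes from the variance trend alone, not from each gene's own spread. The 4 red points on the left are reduced to 1, Optn, on the right.

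Among the cargo receptors, Optn had 12.6, 9.81 and 13.8 FPKM in Tfam KO libraries 1, 2 and 3, against 5.06, 6.26 and 5.89 FPKM in Control libraries 1, 2 and 3. These values rested on 380, 327 and 557 recovered reads in the Tfam KO libraries, against 170, 187 and 257 in the controls. Every Tfam KO library lay above every control, and the highest control was at 6.26 FPKM. Optineurin binds ubiquitin chains and LC3 and is known as a receptor for damaged mitochondria and for bacteria. Its level was 12.1 ± 2.05 FPKM in Tfam KO hearts and 5.74 ± 0.618 FPKM in controls (SD, n = 3 each), with a log2 fold change of 0.95 on the deposited values (SE 0.23, limma adjusted p = 0.00154) and 0.64 with size factors (SE 0.12, limma adjusted p = 0.0114). Divided by size factors, its FPKM was 10.7, 10.6 and 10.4 in the Tfam KO libraries and 6.2, 7.23 and 5.85 in the controls, so the Tfam KO libraries were close together once the library scale was removed. Limma-voom on recovered reads gave a log2 fold change of 0.75 (adjusted p = 0.00498). Its exons share 73 bases with 4930551O13Rik on the opposite strand in the GENCODE annotation. The call was lost without Control replicate 1 as deposited (limma adjusted p = 0.0530) and without Control replicate 3 with size factors (limma adjusted p = 0.0691), while the log2 fold change stayed at 0.87 and 0.59.

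The other receptors did not pass on either scale. Sqstm1, whose protein p62 gathers ubiquitinated cargo, had the highest level of the receptors, at 74.5, 46 and 51.2 FPKM in Tfam KO libraries 1, 2 and 3, against 38.9, 33.6 and 46 FPKM in Control libraries 1, 2 and 3. Tfam KO replicate 1 stood well above the rest, and Tfam KO replicate 2 and Control replicate 3 were nearly level. Its log2 fold change was 0.50 on the deposited values (limma adjusted p = 0.147) and 0.17 with size factors (limma adjusted p = 0.663). The exons of Sqstm1 share 580 bases with Mrnip on the opposite strand. Tax1bp1, another ubiquitin-binding receptor, had 38.8 ± 11.6 FPKM in Tfam KO hearts and 27.1 ± 5.5 FPKM in controls (SD, n = 3 each), and its groups overlapped. Nbr1, a p62-related receptor, had 18.5 ± 3.57 FPKM in Tfam KO hearts and 16.3 ± 1.13 FPKM in controls, with a log2 fold change of 0.17 as deposited and -0.16 once scaled. A measure that no library scale can change is each receptor's share of the summed FPKM of the 4 receptors. The shares are tied, since a higher share of 1 receptor lowers those of the others. A lower share is thus no separate sign of a lower level. Optn took 9.26%, 9.35% and 9.91% in the Tfam KO libraries, against 6.28%, 7.49% and 5.8% in the controls. Nbr1 took 13.4%, 14.4% and 16% in the Tfam KO libraries, against 18.6%, 19.9% and 16.9% in the controls, so its share was lower in every Tfam KO library than in any control. The shares of Sqstm1 and Tax1bp1 overlapped between the groups.

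**Figure D2:**
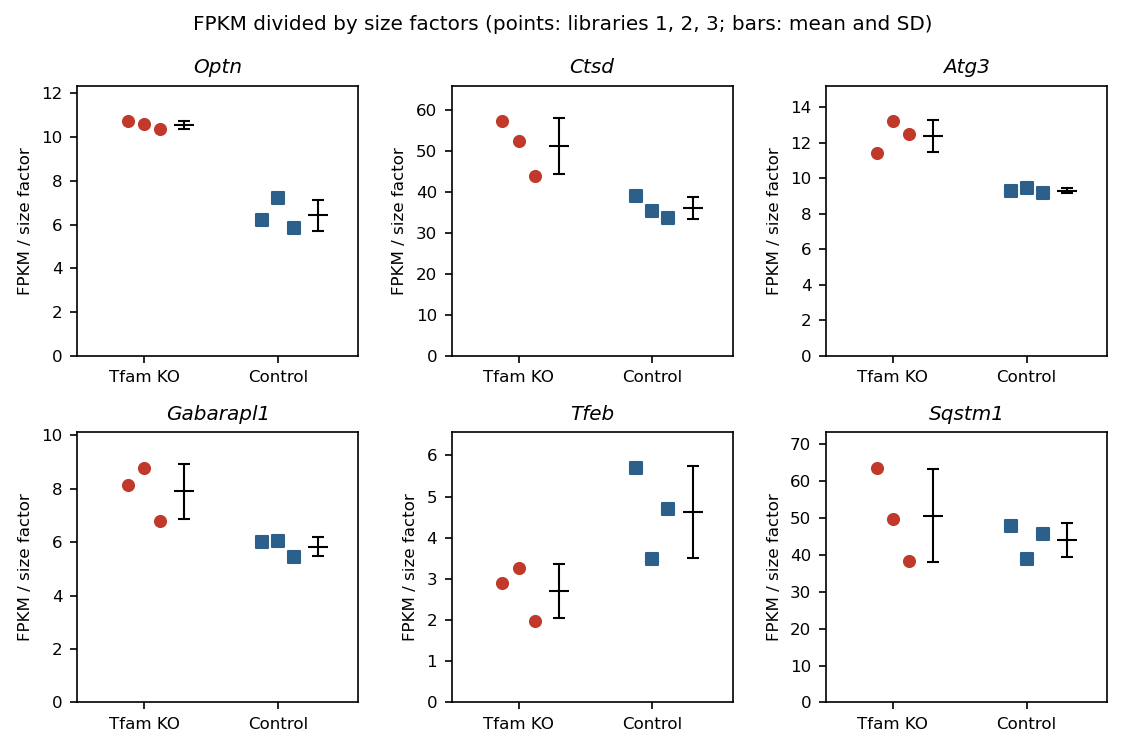
FPKM divided by the size factor in each library for Optn, Ctsd, Atg3, Gabarapl1, Tfeb and Sqstm1, with Tfam KO at the left (red circles) and Control at the right (blue squares) and black bars for mean and SD over 3 libraries. Optn was at 10.4 to 10.7 in Tfam KO and 5.85 to 7.23 in Control, and the groups are apart in every panel except Sqstm1.

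None of the 3 ULK complex genes passed on either scale (before adjustment 0 as deposited and 0 once scaled). The medians were 0.31 and 0.02 on those scales. Ulk2, a kinase paralogue of Ulk1 and the member of the complex with the highest level, had 8.8, 7.26 and 11.4 FPKM in Tfam KO libraries 1, 2 and 3, against 5.78, 5.85 and 8.09 FPKM in Control libraries 1, 2 and 3. The groups overlapped through Tfam KO replicate 2 and Control replicate 3. Rb1cc1, the scaffold FIP200, had 5.42, 8.27 and 9.65 FPKM in Tfam KO hearts and 4.74, 6.22 and 7.0 FPKM in controls, and Ulk1 had 5.42, 4.43 and 4.81 FPKM in Tfam KO hearts and 4.93, 3.95 and 5.81 FPKM in controls. Both overlapped. For Ulk1 the log2 fold change was 0.006 as deposited and -0.27 once scaled (limma adjusted p = 0.988 and 0.338).

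None of the 6 genes of the VPS34 lipid kinase complexes passed either, with medians of 0.25 as deposited and -0.02 with size factors. Becn1, the scaffold Beclin 1, had 16.5, 12 and 19 FPKM in Tfam KO libraries 1, 2 and 3, against 12.5, 14.6 and 16.6 FPKM in Control libraries 1, 2 and 3. Once scaled, it was 14.1, 13 and 14.3 in the Tfam KO libraries and 15.4, 16.9 and 16.5 in the controls, so all Tfam KO libraries were below all controls, with a log2 fold change of -0.22 (SE 0.11, limma adjusted p = 0.304), against 0.10 as deposited. Its exons share 3104 bases with Cntd1 on the opposite strand in the same annotation, and how the counting used strand is not given in the sources used here, so reads of the pair cannot be told apart. Uvrag, the Beclin 1 partner linked to autophagosome and endosome maturation, shares 1589 exonic bases with Gm45187 on the opposite strand. Uvrag leaned the other way. It had 7.88, 7.27 and 8.95 FPKM in Tfam KO libraries 1, 2 and 3, against 4.8, 4.94 and 5.02 FPKM in Control libraries 1, 2 and 3, with all Tfam KO libraries above all controls on both scales and a log2 fold change of 0.61 on the deposited values (SE 0.23, limma adjusted p = 0.0771) and 0.31 with size factors (SE 0.12, limma adjusted p = 0.193). Pik3c3, the catalytic subunit VPS34, Pik3r4, its partner VPS15, and Ambra1, a Beclin 1 regulator, had log2 fold changes of 0.35, 0.15 and 0.34 as deposited and 0.07, -0.11 and 0.07 with size factors. Atg14, which directs the kinase to autophagosome formation, was the least abundant of the 6, at 1.95 ± 0.236 FPKM in Tfam KO hearts and 1.75 ± 0.197 FPKM in controls (SD, n = 3 each).

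The 5 genes for membrane supply and lipid transfer had medians of 0.22 and -0.09 on the deposited and size-factor scales, and 0 passed on either (before adjustment 1 was higher as deposited and 0 once scaled, and limma-voom gave 0 after adjustment). Wipi1, a reader of the lipid that VPS34 makes, had the highest level, at 11.8, 11.1 and 12.6 FPKM in Tfam KO libraries 1, 2 and 3, against 9.2, 9.7 and 11.1 FPKM in Control libraries 1, 2 and 3. Its paralogue Wipi2, which brings in Atg16l1, had 7.87 ± 1.77 FPKM in Tfam KO hearts and 5.42 ± 0.461 FPKM in controls (SD, n = 3 each). The lipid transfer proteins Atg2a and Atg2b differed in sign. Atg2b had 3.18, 2.34 and 3.84 FPKM in Tfam KO libraries 1, 2 and 3, against 1.67, 1.93 and 2.0 FPKM in Control libraries 1, 2 and 3, above all controls in each Tfam KO library on both scales, with a log2 fold change of 0.51 on the deposited values (SE 0.22, limma adjusted p = 0.123) and 0.27 with size factors (SE 0.12, limma adjusted p = 0.272). Atg2a had 2.25, 1.22 and 1.91 FPKM in Tfam KO hearts and 2.03, 1.52 and 2.07 FPKM in controls, with a log2 fold change of -0.05 as deposited and -0.28 once scaled. Whether the paralogues differ from each other was not tested. Atg9a, the membrane protein carried by seed vesicles, had 3.38 ± 0.506 FPKM in Tfam KO hearts and 3.25 ± 0.69 FPKM in controls. The exons of Atg9a share 1832 bases with Gm29253 on the same strand.

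In the conjugation machinery Atg3 was the 1 gene of 10 past the threshold as deposited, and 0 passed with size factors (before adjustment 1 was higher at p under 0.05, and limma-voom gave 0 after adjustment). Atg3 is the E2-like enzyme that passes LC3 to phosphatidylethanolamine. It had 13.3, 12.2 and 16.6 FPKM in Tfam KO libraries 1, 2 and 3, against 7.56, 8.19 and 9.26 FPKM in Control libraries 1, 2 and 3, from 337, 340 and 560 recovered reads in the Tfam KO libraries, against 212, 204 and 337 in the controls. Divided by size factors it was 11.4, 13.2 and 12.5 in the Tfam KO libraries and 9.28, 9.45 and 9.2 in the controls, so the groups did not overlap on either scale. Its level was 14.1 ± 2.3 FPKM in Tfam KO hearts and 8.34 ± 0.86 FPKM in controls (SD, n = 3 each), with a log2 fold change of 0.68 on the deposited values (SE 0.23, limma adjusted p = 0.0434) and 0.37 with size factors (SE 0.11, limma adjusted p = 0.0908). The deposited call was lost on leaving out any 1 library except Tfam KO replicate 2 (limma adjusted p = 0.0917 to 0.300 without it).

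The proteases that trim LC3 and free it from membranes are made by the Atg4 genes. Atg4b, the gene of the 4 with the highest level, had 6.83, 5.03 and 6.72 FPKM in Tfam KO hearts and 3.68, 4.25 and 4.14 FPKM in controls, and Atg4a and Atg4c had means of 4.0 and 2.42 FPKM in Tfam KO hearts and 2.5 and 1.51 FPKM in controls (SD 0.832 and 0.659 in Tfam KO and 0.26 and 0.433 in controls, n = 3 each). All 3 genes lay above the controls in every Tfam KO library as deposited, and Atg4b also with size factors. Their log2 fold changes were 0.51, 0.50 and 0.44 as deposited and 0.23, 0.25 and 0.23 with size factors, none past the threshold. Atg4d had 3.95, 3.25 and 1.88 FPKM in Tfam KO hearts and 2.18, 2.32 and 3.53 FPKM in controls, and the groups overlapped, with the lowest value of all 6 in Tfam KO replicate 3. The exons of Atg4d share 1405 bases with Kri1 on the opposite strand. Atg5, which is joined to Atg12, had 4.78, 4.31 and 6.34 FPKM in Tfam KO hearts and 3.11, 3.13 and 3.88 FPKM in controls, with all Tfam KO libraries above all controls on both scales and a log2 fold change of 0.21 with size factors (limma adjusted p = 0.385). Atg12 had 8.76, 6.04 and 11.6 FPKM in Tfam KO hearts and 6.91, 7.01 and 7.92 FPKM in controls, and Tfam KO replicate 2 lay below every control. Atg7, the E1-like enzyme, Atg10, the E2-like enzyme for Atg12, and Atg16l1, which places the conjugate on the membrane, had log2 fold changes of 0.26, 0.23 and 0.31 as deposited and 0.03, -0.02 and 0.05 with size factors. The lowest mean FPKM of the group were those of Atg4c, 1.97 over the 6 libraries, and Atg7, 2.16.

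The LC3 and GABARAP genes were expressed at unequal levels, and Gabarapl1, the least abundant, was the 1 of 5 past the threshold, as deposited only. Gabarapl1 had 9.53, 8.13 and 9.01 FPKM in Tfam KO libraries 1, 2 and 3, against 4.9, 5.24 and 5.46 FPKM in Control libraries 1, 2 and 3, from 212, 199 and 267 recovered reads in the Tfam KO libraries, against 121, 115 and 175 in the controls. All Tfam KO libraries lay above all controls on both scales, with a log2 fold change of 0.67 on the deposited values (SE 0.23, limma adjusted p = 0.0458) and 0.38 with size factors (SE 0.13, limma adjusted p = 0.135). As for Atg3, the deposited call was lost on leaving out any 1 library except Tfam KO replicate 2 (limma adjusted p = 0.0971 to 0.282 without it). Its exons share 570 bases with 1700101I11Rik on the opposite strand. Gabarap was the most abundant of the family, at 82.1, 76.9 and 83.7 FPKM in Tfam KO libraries 1, 2 and 3, against 62.9, 55.3 and 61.9 FPKM in Control libraries 1, 2 and 3. It lay above the controls as deposited and overlapped them once scaled (70.2, 83.1 and 62.9 in the Tfam KO libraries and 77.2, 63.8 and 61.5 in the controls), with a log2 fold change of 0.43 and 0.09 on those scales. Map1lc3a, Map1lc3b and Gabarapl2 had log2 fold changes of 0.30, 0.27 and 0.26 as deposited, near the median of all genes, and -0.03, -0.05 and -0.07 with size factors.

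As a share of the family's summed FPKM, Gabarap took 41.3% ± 0.303 in Tfam KO hearts and 39.997% ± 3.13 in controls (SD, n = 3 each). Shares within this family are tied to each other as well. Map1lc3a and Gabarapl2 changed places between libraries. Map1lc3a took 26.9%, 26.6% and 14.9% in the Tfam KO libraries, against 25.7%, 22.6% and 21.7% in the controls, and Gabarapl2 took 14.9%, 19.2% and 28.2% in the Tfam KO libraries, against 17.5%, 26.3% and 22.2% in the controls, with overlap for both. Gabarapl1 took 4.84%, 4.35% and 4.43% in the Tfam KO libraries, against 3.35%, 3.48% and 3.55% in the controls, a small share that was higher in every Tfam KO library. The proteins of the family share the function of being joined to the autophagosome membrane, and the GABARAP branch is known for acting late, when the autophagosome closes and meets the lysosome.

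**Figure D3:**
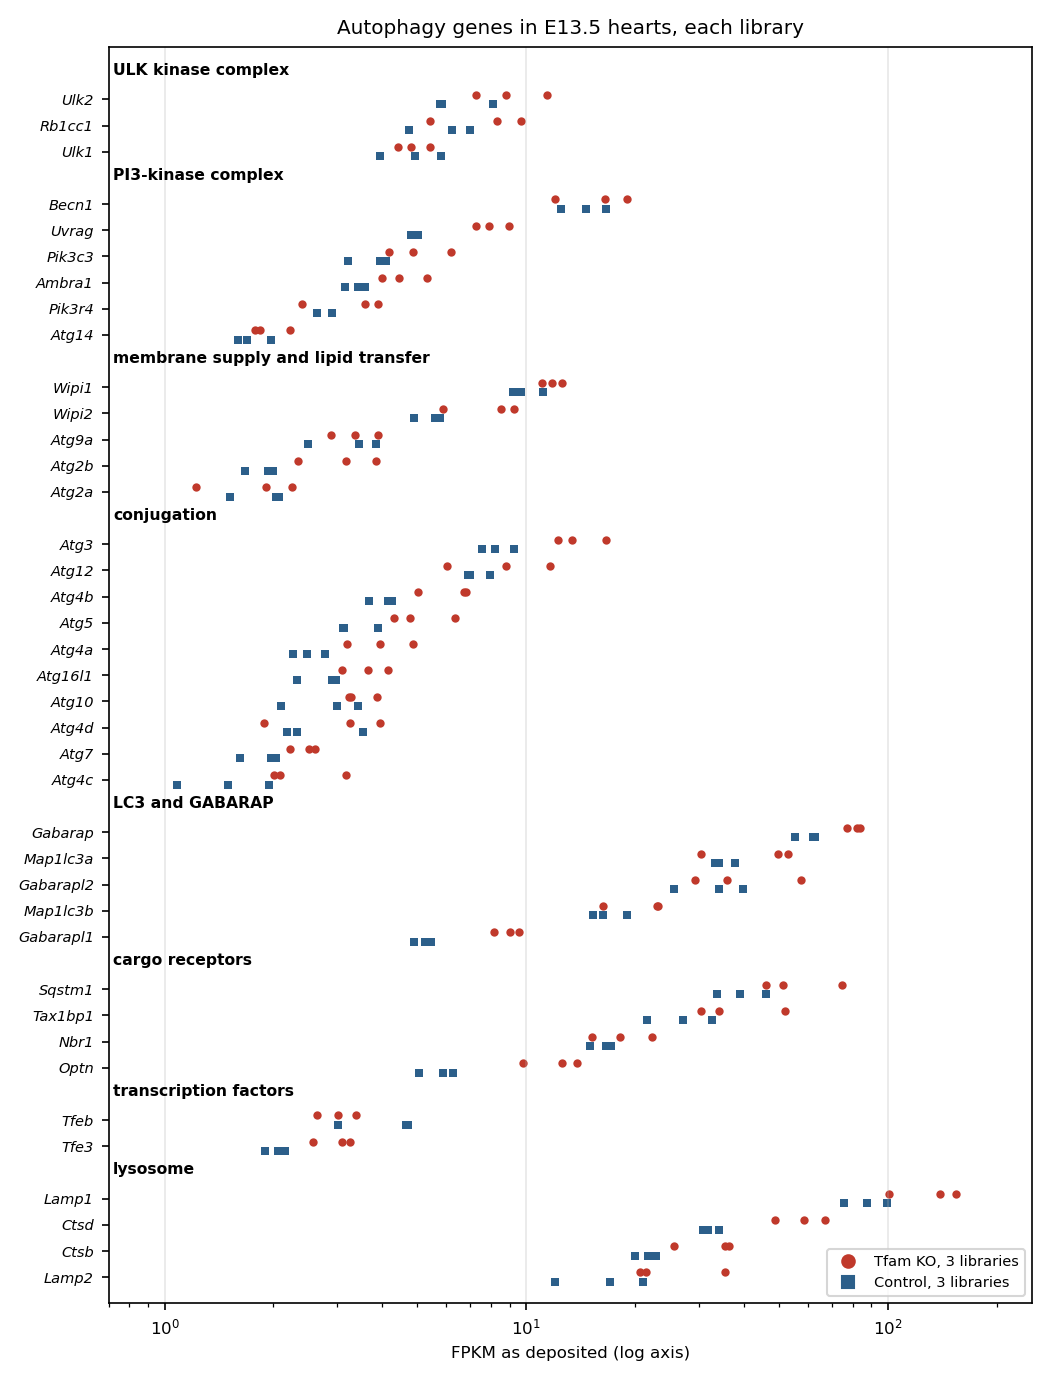
FPKM of the 39 autophagy genes in each library as deposited, on a log axis, with Tfam KO (red circles) above Control (blue squares) in each row and genes ordered within a role by mean level. Lamp1, Gabarap, Sqstm1 and Ctsd are the most abundant, and the groups are visibly apart for Optn and Gabarapl1.

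All 4 lysosomal members were higher in Tfam KO hearts in sign on both scales, and Ctsd, the aspartic protease cathepsin D, passed as deposited. Of all 10807 genes tested, 9126 were higher in sign as deposited and 5444 with size factors, so a positive sign as deposited was common. The medians of the 4 were 0.58 as deposited and 0.25 with size factors, beside 0.28 and 0.0024 for all genes. Ctsd had 67.1, 48.7 and 58.4 FPKM in Tfam KO libraries 1, 2 and 3, against 31.8, 30.8 and 34 FPKM in Control libraries 1, 2 and 3. Each Tfam KO library stood above each control, and once scaled the values were 57.3, 52.6 and 43.9 in the Tfam KO libraries and 39, 35.5 and 33.8 in the controls. Its level was 58 ± 9.21 FPKM in Tfam KO hearts and 32.2 ± 1.66 FPKM in controls (SD, n = 3 each), with a log2 fold change of 0.82 on the deposited values (SE 0.23, limma adjusted p = 0.0101) and 0.49 with size factors (SE 0.13, limma adjusted p = 0.0641) and 0.52 by limma-voom (adjusted p = 0.0303). The deposited call was lost on leaving out replicate 1 of Tfam KO or Control replicates 1 or 2 in turn (limma adjusted p = 0.142, 0.0896 and 0.111). In that annotation 808 exonic bases of Ctsd also belong to Gm49369, a gene on the same strand. Lamp1, the abundant lysosomal membrane glycoprotein with the highest level of all members, had 139, 100.5 and 154 FPKM in Tfam KO libraries 1, 2 and 3, against 75.5, 87.3 and 99.3 FPKM in Control libraries 1, 2 and 3. The lowest Tfam KO library was just above the highest control, and a log2 fold change of 0.57 on the deposited values (SE 0.23, limma adjusted p = 0.0943) and 0.23 with size factors (SE 0.11, limma adjusted p = 0.299) did not pass. Ctsb, the cysteine protease cathepsin B, had 35.4, 25.7 and 36.4 FPKM in Tfam KO hearts and 21.7, 20.03 and 22.8 FPKM in controls, again without overlap, and a log2 fold change of 0.23 with size factors (limma adjusted p = 0.304). The exons of Ctsb share 774 bases with Fdft1 on the opposite strand, and those of Lamp1 share 249 with Grtp1, also opposite. Lamp2, the other membrane glycoprotein, had 20.6, 21.4 and 35.3 FPKM in Tfam KO hearts and 12, 17 and 21 FPKM in controls, where Tfam KO replicate 1 lay below Control replicate 3.

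Tfeb and Tfe3, which encode the regulators of these lysosomal genes, had low levels. Tfeb had 3.38, 3.01 and 2.64 FPKM in Tfam KO libraries 1, 2 and 3, against 4.65, 3.02 and 4.72 FPKM in Control libraries 1, 2 and 3, with the highest values in Control replicates 1 and 3 and Control replicate 2 level with Tfam KO replicate 2. It was the member with the lowest log2 fold change, at -0.34 as deposited (SE 0.22, limma adjusted p = 0.296) and -0.60 with size factors (SE 0.18, limma adjusted p = 0.102). Scaled, it was 2.89, 3.25 and 1.99 in the Tfam KO libraries and 5.7, 3.48 and 4.69 in the controls, so that the groups did not overlap. Its reads were few, with 99, 97 and 103 recovered reads in the Tfam KO libraries, against 151, 87 and 199 in the controls. Limma-voom on these gave a log2 fold change of -0.82 (adjusted p = 0.0460), and limma with size factors placed it lower without Control replicate 2 (log2 fold change -0.75, adjusted p = 0.0438). Tfe3 had 3.09, 3.25 and 2.58 FPKM in Tfam KO hearts and 2.15, 1.9 and 2.06 FPKM in controls, which did not overlap as deposited and did once scaled, with log2 fold changes of 0.38 and 0.15. These are transcript levels. TFEB and TFE3 are known to be controlled mainly by phosphorylation and entry into the nucleus, which RNA does not show.

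Promoter sequences are shown for the members past the threshold on either scale and for Lamp1, because TFEB and TFE3 are known to bind E-boxes near the start sites of lysosomal genes. Lamp1 itself passed on neither scale. The other lysosomal members that did not pass, Ctsb and Lamp2, are not shown. Each is the 250 bases before the RefSeq start site (build GRCm38.p6), read 5′ to 3′ on the gene's strand. Capitals mark CACGTG, an E-box core that reads the same on both strands. Optn lies at chr2:5064118-5064367, minus strand, Ctsd at chr7:142387828-142388077, minus strand, Lamp1 at chr8:13158911-13159160, plus strand, Atg3 at chr16:45158579-45158828, plus strand, and Gabarapl1 at chr6:129532942-129533191, plus strand.
Optn: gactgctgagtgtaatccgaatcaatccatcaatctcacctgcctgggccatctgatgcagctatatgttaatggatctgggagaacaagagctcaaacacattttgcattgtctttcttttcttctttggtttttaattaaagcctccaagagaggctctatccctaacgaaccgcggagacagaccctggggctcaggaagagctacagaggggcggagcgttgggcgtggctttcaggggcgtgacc
Ctsd: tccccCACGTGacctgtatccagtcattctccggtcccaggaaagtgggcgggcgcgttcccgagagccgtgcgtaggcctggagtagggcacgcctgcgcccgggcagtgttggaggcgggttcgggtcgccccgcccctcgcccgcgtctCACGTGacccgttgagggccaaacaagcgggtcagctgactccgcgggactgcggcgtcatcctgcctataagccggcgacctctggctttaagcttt
Lamp1: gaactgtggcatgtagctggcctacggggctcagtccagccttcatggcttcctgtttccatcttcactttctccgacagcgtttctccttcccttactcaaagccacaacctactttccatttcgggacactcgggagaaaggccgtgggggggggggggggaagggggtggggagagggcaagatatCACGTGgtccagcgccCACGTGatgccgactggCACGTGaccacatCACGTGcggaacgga
Atg3: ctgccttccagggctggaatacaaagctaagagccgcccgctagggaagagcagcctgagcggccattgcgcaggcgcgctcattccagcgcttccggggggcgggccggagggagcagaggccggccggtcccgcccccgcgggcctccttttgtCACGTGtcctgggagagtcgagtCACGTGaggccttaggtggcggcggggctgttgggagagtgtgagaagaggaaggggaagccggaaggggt
Gabarapl1: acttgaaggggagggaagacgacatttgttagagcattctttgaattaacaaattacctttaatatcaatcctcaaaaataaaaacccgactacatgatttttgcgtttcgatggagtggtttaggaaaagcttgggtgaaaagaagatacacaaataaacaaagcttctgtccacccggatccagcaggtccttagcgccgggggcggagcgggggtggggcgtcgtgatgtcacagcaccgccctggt

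CACGTG occurred 2 times before Ctsd, 4 times before Lamp1, 2 times before Atg3 and 0 times before Optn and Gabarapl1. The 4 copies before Lamp1 began 61, 45, 28 and 15 bases before its start, those before Ctsd 245 and 98, and those before Atg3 94 and 71. Windows were found for 32 of the 39 members, and 5 of these members, Atg5 and Atg7 with the 3 above, held CACGTG (15.6%). Ctsb and Lamp2 were not among these 5. Some genes had more than 1 window. Counted by window, CACGTG was in 5 of the members' 39 windows, beside 1978 of all 32851 windows (6.02%). The longer TCACGTGA, which contains CACGTG, occurred in Ctsd and Atg3 and in 0.785% of all windows. TGATGNAA on either strand, letters of the element that ATF4 is known to bind, occurred in 0 of the 32 members and in 3.45% of all windows. A match of letters is a description of the window and shows no binding.

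Of the members, 12 are known as targets of the stress transcription factors ATF4 or CHOP in mouse fibroblasts short of amino acids. In Tfam KO hearts 1 of the 12, Atg3, was higher as deposited and 0 with size factors (1 before adjustment, 0 by limma-voom), and 0 were lower on either scale. Their medians were 0.27 as deposited and 0.006 with size factors. The other 27 members had medians of 0.42 and 0.15, with 3 higher as deposited and 1 with size factors. Over all genes tested, 6.21% were higher as deposited and 1.99% with size factors, with medians of 0.28 and 0.0024. Whether the 12 and the 27 differ was not tested.

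Other genes of the pathway were counted from 3 lists, beside 6.21% of all genes higher and 1.16% lower as deposited. With size factors these shares were 1.99% and 2.60%. Of 34 further core autophagy genes tested (of 37 listed), 1 was higher as deposited, Vmp1, a membrane protein of the endoplasmic reticulum, and 0 with size factors (before adjustment 2 were higher and 5 lower at p under 0.05, beside 8.49% and 11.0% of all genes, and limma-voom gave 0 higher and 0 lower after adjustment). The mitophagy receptors Bnip3 and Bnip3l in this list had log2 fold changes of -0.08 and -0.0091 as deposited and -0.41 and -0.34 with size factors, none past the threshold. The list's medians were 0.32 and 0.03. Of 40 lysosome genes tested (of 43), 6 (15%) were higher and 0 lower as deposited, among them Ctsl, Ctss and Atp6v1d. With size factors 1, Ctsl, was higher (2.5%, beside 1.99% of all genes) and 0 lower. Before adjustment 7 were higher and 1 lower there, and limma-voom gave 1 higher and 0 lower after adjustment. The lysosome list's medians were 0.44 as deposited and 0.16 with size factors, beside 0.28 and 0.0024 for all genes. Ctsl, the cysteine protease cathepsin L, rose and had 64.7, 49 and 72.7 FPKM in Tfam KO libraries 1, 2 and 3, against 26.1, 26.6 and 31.2 FPKM in Control libraries 1, 2 and 3, with a log2 fold change of 1.11 on the deposited values (SE 0.23, limma adjusted p = 8.84e-05) and 0.78 with size factors (SE 0.10, limma adjusted p = 0.00202). In the GENCODE annotation its exons share 1742 bases with Gm47123 on the opposite strand and 395 with the pseudogene Gm49230 on the same strand.

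Lysosomal proteases are abundant in macrophages, so their markers are set beside these values. The summed FPKM of 13 macrophage markers was 23.6 to 42.3 in the Tfam KO libraries and 23.2 to 30.2 in the controls as deposited, and 25.5 to 31.8 in the Tfam KO libraries and 26.8 to 33.3 in the controls with size factors. Of the 12 tested, Cx3cr1 and Fcer1g were higher as deposited, beside 6.21% of all genes. With size factors 0 were higher (before adjustment 1 at p under 0.05, and 0 by limma-voom), beside 1.99% of all genes. Lyz2 was lower with size factors (log2 fold change -0.59, limma adjusted p = 0.0204), beside 2.60% of all genes. It was also lower by limma-voom (log2 fold change -0.66, adjusted p = 0.0478), beside 4.03%. Of the 13, 0 were at 0 throughout. The defining marker Csf1r had 3.62, 2.49 and 4.29 FPKM in Tfam KO hearts and 3.17, 2.19 and 2.73 FPKM in controls. The part of macrophages in the values of the lysosomal genes was not tested. Summed erythroid markers were 3090.5 to 13531 in the Tfam KO libraries and 5413 to 10546 in the controls, and summed endothelial markers were 116 to 152 in the Tfam KO libraries and 101 to 119 in the controls. Fibroblast and epicardial markers summed to 284 to 400.2 in the Tfam KO libraries and 182 to 283 in the controls. With size factors these were 3340.0 to 10166 in the Tfam KO libraries and 6246 to 12940.0 in the controls for erythroid, 114 to 127 in the Tfam KO libraries and 119 to 124 in the controls for endothelial, and 278 to 307 in the Tfam KO libraries and 209 to 320.4 in the controls for fibroblast and epicardial markers. Hbb-y made up most of the erythroid sum. Of the 9 erythroid markers Hba-a1 was at 0 throughout, and 6 were tested. Their log2 fold changes were negative in 5 as deposited (median -0.11) and in 6 with size factors (median -0.44). Over all 10807 genes 1681 and 5363 were negative. On either scale 0 of the 6 passed the threshold. Of these 3 lists, Emcn, Postn and Pdgfra were higher as deposited and 0 genes with size factors, beside 6.21% and 1.99% of all genes. Their part in the values of the members was not tested.

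The last list held 27 upstream kinases and regulators, among them the transcription factors Foxo1, Foxo3 and Zkscan3. Of these 27, Sesn2 and Fnip2 rose (beside 1.99% of all genes) and Akt1s1 fell (0.953%), each without overlap of the groups on both scales. Over all genes, the Tfam KO libraries lay above all controls in 25.6% as deposited and 11.8% with size factors. They lay below all controls in 2.34% and 12.2%. Sesn2, a stress-induced inhibitor of mTORC1, had 9.85, 7.61 and 8.99 FPKM in Tfam KO libraries 1, 2 and 3, against 1.62, 0.913 and 1.75 FPKM in Control libraries 1, 2 and 3, with a log2 fold change of 2.03 on the deposited values (SE 0.22, limma adjusted p = 5.52e-17) and 1.77 with size factors (SE 0.16, limma adjusted p = 0.000173). The deposited SE and p rest on the variance trend over all genes, not on the spread of Sesn2 itself. Fnip2, a partner of folliculin, had 3.57, 2.46 and 3.6 FPKM in Tfam KO hearts and 1.04, 1.41 and 1.67 FPKM in controls, with log2 fold changes of 0.82 and 0.60 (limma adjusted p = 0.00475 and 0.0291). Akt1s1, the mTORC1 component PRAS40, had 18.3, 12.9 and 12 FPKM in Tfam KO hearts and 29, 19.7 and 25.9 FPKM in controls, with log2 fold changes of -0.75 and -1.07 (limma adjusted p = 0.0218 and 0.0157). The list's medians, 0.25 and -0.05, were near those of all genes.

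**Figure D4:**
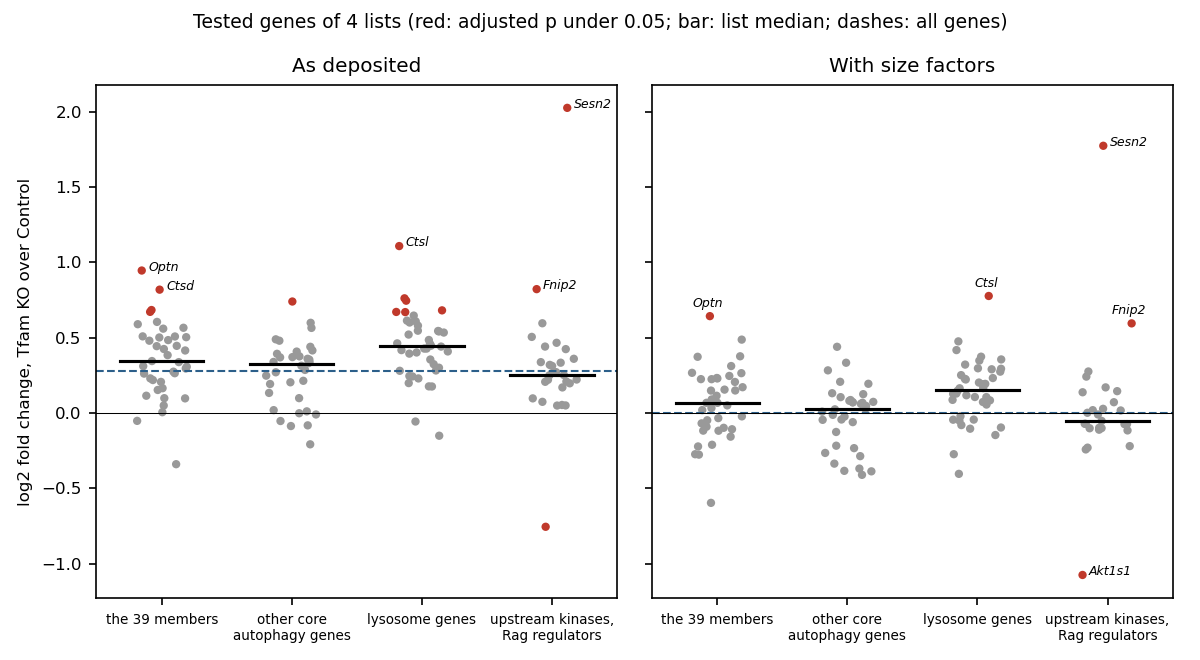
Log2 fold change of Tfam KO over Control for the tested genes of 4 lists, as deposited (left) and with size factors (right), with red for an adjusted p under 0.05, black bars for list medians and a dashed line for the median of all genes. The lysosome list has the highest median on both scales (0.44 and 0.16), and Optn, Ctsl, Sesn2, Fnip2 and Akt1s1 are red on both.

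The members also differed within the Tfam KO group. With size factors, Map1lc3a deviated from its mean by 0.22, 0.46 and -0.74 in Tfam KO replicates 1, 2 and 3 and 0.25, 0.02 and -0.22 in Control replicates 1, 2 and 3 on the log2 scale, so the 3 Tfam KO pools covered a wider range than the controls. Atg4d deviated by 0.21, 0.26 and -0.64 in Tfam KO replicates 1, 2 and 3 and -0.04, -0.04 and 0.25 in Control replicates 1, 2 and 3, with Tfam KO replicate 3 lowest in the same way. Sqstm1 deviated by 0.44, 0.09 and -0.27 in Tfam KO replicates 1, 2 and 3 and 0.03, -0.26 and -0.03 in Control replicates 1, 2 and 3. For Rb1cc1 the values were -0.45, 0.37 and 0.10 in Tfam KO replicates 1, 2 and 3 and -0.17, 0.09 and 0.05 in Control replicates 1, 2 and 3, and Tfam KO replicate 1 was the low one. A spread of this size within 3 pools limits what can be said of these genes.

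**Figure D5:**
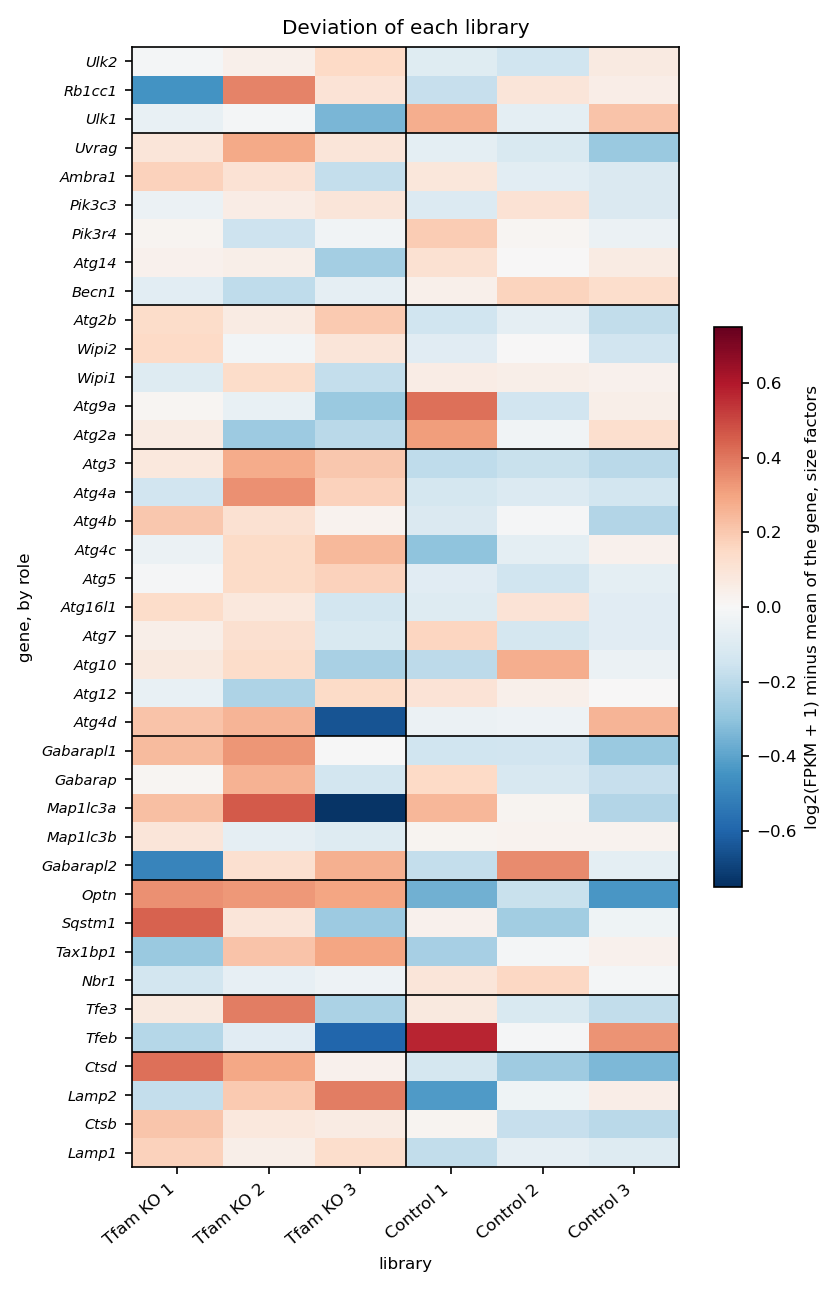
Deviation of each library from the gene's mean over the 6 libraries, as log2(FPKM + 1) with size factors, for the 39 autophagy genes by role, with Tfam KO in the 3 left columns and Control in the 3 right columns. Optn is red across the Tfam KO columns. Ctsd is red in Tfam KO replicates 1 and 2 (0.41 and 0.29) and nearly white in replicate 3 (0.03). Map1lc3a and Atg4d change colour within the Tfam KO group, down to -0.74 and -0.64 in replicate 3.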

How the data were processed

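Polyadenylated RNA of pooled E13.5 hearts was sequenced, 3 libraries per group. The authors deposited log2(FPKM + 1) values per gene. The FPKM unit comes from the file names and the log2 scale from the values. Build mm9 and the tools CASAVA 1.8.2, TopHat2 2.0.7 and HTSeq 0.5.3 are listed in the submitters' processing notes. The annotation and strand setting are not given in the sources used here. The tables hold no positions.

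Limma 3.58.1 (R 4.3.3) was fitted to the deposited values of the 10807 genes that averaged 1 FPKM or more over the 6 libraries, with group as the only term, a variance trend, two-sided tests and Benjamini-Hochberg adjustment over all of them (threshold 0.05). On the deposited values the prior degrees of freedom of this fit were infinite. Each SE and p there thus rests on the variance trend over genes of like level, not on the gene's own spread between libraries. With size factors the prior degrees of freedom were 6.14, so a gene's own spread counted in part. Fold changes include the pseudocount of 1, which understates those of low genes. The fit was repeated with median-of-ratios size factors and, with limma-voom and TMM factors, on whole reads recovered from the FPKM steps. Whole reads, to within 0.02 of a read at most, were recovered for 17876 of 17876 genes above 0, up to a common factor per gene. Library totals follow from the steps of low genes with 1 transcript length in GENCODE vM21. Further alternatives were a pseudocount of 0.1, no filter, leaving out each library, and a replicate block.

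The members, lists and motifs were chosen with earlier results of these data known. Values in every library are given for members past the threshold on either scale and for the most abundant of each role, with others where a sentence turns on them. Gene symbols were matched directly, or through RefSeq synonyms for 6 of the list genes. Labels name pools of separate hearts, so replicates are biological pools.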

Additional observations from a re-analysis of the deposited data

How the results depend on the processing

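The count of higher members depended on the library scale. It was 4 as deposited, 1 with size factors, 2 by limma-voom on reads, 0 with no filter on low values (0.811% of all genes higher), and 4 with a pseudocount of 0.1 (6.36%). The lower count was 0 except 1, Tfeb, by limma-voom. Leaving out 1 library gave 0 to 12 higher and 0 to 1 lower over both scales, the 12 without Tfam KO replicate 2 as deposited (20.6% of all genes higher) and the 0 without Control replicate 1 as deposited or Control replicate 3 with size factors. The median log2 fold change of the members was 0.068 with size factors, 0.11 by limma-voom and 0.030 to 0.43 without 1 library. Replicate numbers were not taken as pairs. Deviations of same-numbered libraries correlated at 0.365, 0.050 and 0.175, and those of differently numbered ones at -0.407 to 0.254. These values do not settle whether libraries of the same number belong together. With the replicate number as a block, 14 were higher as deposited (19.3% of all genes) and 2 with size factors (2.57%), where the median was 0.068. The log2 fold changes of Ulk1, Becn1, Pik3r4, Atg14, Atg9a, Wipi1, Atg4d, Atg10, Atg12, Map1lc3a, Map1lc3b, Gabarapl2 and Nbr1 turned to -0.27, -0.22, -0.11, -0.12, -0.21, -0.090, -0.12, -0.022, -0.098, -0.033, -0.048, -0.068 and -0.16 with size factors, with or without the block. Limma-voom gave Ulk1 -0.34, Becn1 -0.22, Pik3r4 -0.11, Atg14 -0.21, Atg9a -0.27, Wipi1 -0.094, Atg4d -0.31, Atg10 -0.039, Atg12 -0.076, Map1lc3a -0.035, Map1lc3b -0.036, Gabarapl2 -0.039 and Nbr1 -0.15. Without 1 library on either scale, members whose sign changed ranged as follows: Ulk1 -0.38 to 0.12, Rb1cc1 -0.16 to 0.52, Becn1 -0.26 to 0.27, Pik3r4 -0.16 to 0.31, Ambra1 -0.00022 to 0.42, Atg14 -0.17 to 0.16, Atg2a -0.37 to 0.10, Atg9a -0.33 to 0.15, Wipi1 -0.18 to 0.29, Atg4d -0.27 to 0.34, Atg7 -0.020 to 0.31, Atg10 -0.13 to 0.34, Atg12 -0.19 to 0.43, Atg16l1 -0.0048 to 0.39, Map1lc3a -0.27 to 0.54, Map1lc3b -0.10 to 0.43, Gabarap -0.011 to 0.46, Gabarapl2 -0.22 to 0.47, Sqstm1 -0.0044 to 0.64, Nbr1 -0.20 to 0.29 and Tfe3 -0.0018 to 0.46. None of these passed the threshold in those fits except Sqstm1 without Tfam KO replicate 2 as deposited (adjusted p = 0.0485). The causes were not tested. Counts per gene bound the precision, and the lowest read count of a member was 47, for Atg10 in Control replicate 1.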
